A study of Mus musculus with 9 samples.

Results

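The cytosolic ribosomal protein genes encode the proteins of the ribosomes that translate nuclear mRNAs. They were taken from the table of raw counts by symbol: Rpl or Rps followed by a number, Rplp0 to Rplp2 and Rpsa, without the Rps6k kinases and without rows named as pseudogenes. Of 48679 listed names, 88 matched, and 71 had at least 10 counts in all 9 samples and were kept. These 71 genes comprised 41 of the large subunit, 3 of the ribosomal stalk and 27 of the small subunit. Measured values did not enter this rule beyond the minimum, but the family was chosen with earlier results of these data known. The samples came from a laser model of retinal vein occlusion (RVO) in C57BL/6J mice 12 weeks old, and each was a pool of 6 retinas. In the 3 RVO samples, large retinal veins had been closed by laser after the photosensitiser eosin Y was given. In the 3 control samples, the laser was applied to the retina of the fellow eye of the same mice without hitting large vessels, so control eyes shared the injection, the laser and the mouse with RVO eyes. Both were taken at 2 days (d2). The 3 untreated samples were retinas of other mice, which the paper describes as left untreated. Laser, the injection before it and mouse thus cannot be told apart in comparisons with them. Control eyes also came from mice with closed veins in the other eye, which untreated mice did not have.

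A ribosome joins a small subunit, which reads the mRNA, and a large subunit, which forms the peptide bond. The proteins are made in matched amounts, and their mRNAs carry a 5′ terminal oligopyrimidine (TOP) tract, a C followed by pyrimidines at the very start, through which mTOR signalling and LARP1 set how strongly they are translated. Ribosomal protein mRNAs are abundant in growing and activated cells, and transcripts of the MYC pathway are known to go with their production. The mRNAs are short, several of the genes host small nucleolar RNAs in their introns, and the family has left many near-identical processed pseudogenes in the mouse genome.

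Total counts were between 12377572 and 15245869 in untreated, between 18897218 and 23419497 in control and between 21022997 and 28993921 in RVO samples. The samples of a group differed by more than the sampling noise. Retina markers (Sag, Pde6b, Rlbp1 and Pax6) summed to between 6269 and 12807 CPM and were thus present in every sample. CPM, here and below, is the count of a gene for every 1000000 counts of its library, the size of which was scaled by its TMM factor. The summed retina markers were highest in untreated samples (12251 to 12807 CPM), lower in control (9760 to 10755) and lowest in RVO samples (6269 to 6760). Summed leukocyte markers (7 genes, none at 0) followed the opposite order, at 13.6 to 18.9 CPM in untreated, 54.7 to 83.5 in control and 145 to 213 in RVO samples. Lens markers (7 genes, none at 0 throughout) summed to 3.43 to 28.2 CPM in untreated, 219 to 3116 in control and 186 to 5903 in RVO samples. Markers of the pigment epithelium (5 genes, none at 0) summed to 794 to 823, 575 to 673 and 539 to 686 CPM in this order of groups. This list shares Rlbp1 with the retina markers. Between RVO and untreated eyes, 1 of its 5 genes had a log2 fold change above 0 and 4 had one below. Mitochondrially encoded genes took 7.73% to 9.92% of the counts in untreated, 3.32% to 3.86% in control and 1.77% to 3.17% in RVO samples. In such bulk samples, a different number of cells of a type cannot be told apart from a different amount of RNA per cell.

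The start of the mRNA is shown for members named below, because the TOP tract sits there. Of the 71 genes, 52 matched the RefSeq promoter table (build GRCm38.p6), with 62 annotated starts between them. Each line gives 10 bases before and 20 bases from the annotated start, and capitals mark the longest run of pyrimidines (C or T). The first 6 genes are examples of those that rose in RVO or control eyes, and the last 3 are among those with lower values in control than in untreated eyes.
Rps10 (chr17:27635225-27635254, minus strand): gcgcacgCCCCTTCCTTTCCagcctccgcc
Rplp2 (chr7:141447641-141447670, plus strand): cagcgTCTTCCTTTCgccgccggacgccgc
Rpl12 (chr2:32961702-32961731, plus strand): agcaggatccgTCTTTTCggctttcggctc
Rps21 (chr2:180257369-180257398, plus strand): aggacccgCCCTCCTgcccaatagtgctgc
Rps2 (chr17:24720053-24720082, plus strand): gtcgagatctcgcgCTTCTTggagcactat
Rpl22l1 (chr3:28805498-28805527, plus strand): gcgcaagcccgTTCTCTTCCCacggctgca
Rps24 (chr14:24490668-24490697, plus strand): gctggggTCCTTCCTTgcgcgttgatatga
Rps26 (chr10:128626487-128626516, minus strand): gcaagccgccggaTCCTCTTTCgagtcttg
Rpl41 (chr10:128549149-128549178, minus strand): gggccggCTCggaagtgacgacaccgagca
Runs of 6 to 13 pyrimidines stood near the start in the first 8 of these windows, and the longest run of Rpl41 was 3. Among other genes named below that rose in RVO eyes, some had shorter runs and some did not. The longest run was 2 in Rpl7l1, 3 in Rps15 and Rpl10, 3 and 5 at annotated starts of Rpl22, 4 in Rps4x and 5 in Rpsa. It was 8 in Rpl39 and 7 in Rplp0, and 7 and 4 at annotated starts of Rps27l. A second annotated start of Rps21 had 4. Longer and shorter runs were thus both found among genes that were higher and among genes that were lower after laser.

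Over all 62 starts of ribosomal protein genes, a C followed by 4 or more pyrimidines lay in the 30-base window in 36 (58.1%), against 35.8% of the 32851 starts of the table. The annotated start itself was a C that opened a run of 5 or more pyrimidines in 10 of 62 (16.1%) and in 2.51% of all starts. The following 4 words of letters were searched on both strands of the 300 bases around each start (250 before and 50 from it), and none of these words contains another. CCGGAAG, the core bound by ETS factors, was present in 37.1% of the ribosomal protein promoters and in 8.86% of all. TCTCGCGA was present in 17.7% and 0.995%, AAGATGGC, a word of YY1, in 11.3% and 2.75%, and TATAAA in 11.3% and 13.6%. The log2 fold change between RVO and untreated eyes had a median of 1.18 over the 34 genes with the C and pyrimidine run in a window and of 1.05 over the 18 genes without it. These matches are a description, and no test was made on them.

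The first question was which share of the counts these genes took. A median of 60% of the read-length windows of their mRNAs occurred in other genes, as described below. How reads that match several genes were counted is not given in the sources used here. The share of counts thus cannot be read as the share of the mRNA pool. Ribosomal protein genes held 0.310%, 0.294% and 0.321% of all counts in the 3 untreated samples. They held 0.412%, 0.457% and 0.428% in control and 0.653%, 0.544% and 0.676% in RVO samples. The groups did not overlap: each RVO sample was above each control sample, and each control sample was above each untreated sample. The means were 0.308% ± 0.0137 in untreated, 0.432% ± 0.0232 in control and 0.624% ± 0.0702 in RVO eyes (SD, n = 3). RVO eyes thus had 2.03 times and control eyes 1.40 times the share of untreated eyes, and RVO eyes had 1.44 times the share of control eyes. Each of the 3 differences gave p = 0.1 in the exact two-sided permutation test, which is the smallest p that 3 against 3 samples allow. Outside mitochondrially encoded genes, a denominator chosen after seeing the data, the ratios were 1.90, 1.33 and 1.43, and the groups again did not overlap. The share followed the same order as the summed leukocyte markers and the opposite order to the summed retina markers. Of the 4 retina markers, 3 had a log2 fold change below 0 and 1 above 0 between RVO and control eyes. The part of leukocytes and retinal cells in the result was not tested.

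**Figure D1:**
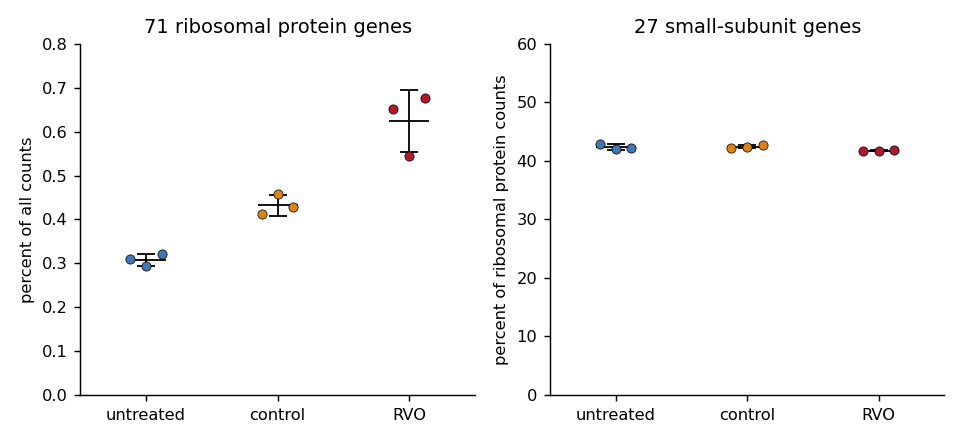
Left: percent of all counts in the 71 ribosomal protein genes. Right: percent of these counts in the 27 small-subunit genes. Points are the 3 samples of each group, and bars the mean ± SD. The left panel steps up from about 0.308% in untreated through 0.432% in control to 0.624% in RVO eyes, while the right panel stays between 41.6% and 42.9%.

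RVO and untreated eyes were compared to describe laser and occlusion together, and the injection and the mouse differed as well. Among the 71 ribosomal protein genes, RVO eyes had 54 higher and 2 lower at a threshold of 0.01 (quasi-likelihood test of edgeR, p adjusted by Benjamini-Hochberg over all genes). Of all 16380 genes tested, 27.4% were higher and 24.6% lower. The median log2 fold change was 1.07 (2.09-fold) for the ribosomal protein genes and 0.0081 for all genes. With the trends with gene length and GC content removed, it was 0.71 for the ribosomal protein genes. In 58 of the 71, every RVO sample was above every untreated sample, which was so for 35.9% of all genes. The size of the change varied widely among the genes, as the interquartile range of log2 fold changes ran from 0.55 to 1.58 and the extremes from -2.30 to 3.18.

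The stalk proteins form the lateral arm of the large subunit that recruits translation factors. Rplp0 (chr5:115559467-115563727), the base of the stalk, was at 72.7, 69.1 and 89.6 CPM in untreated, at 121, 146 and 124 in control and at 249, 204 and 260 CPM in RVO samples. Its value rose 3.15-fold from untreated to RVO eyes (log2 1.65 ± 0.13 SE, adjusted p = 2.91e-05, edgeR). Rplp2 (chr7:141447370-141451585), a partner that binds this base, was at 16.0, 14.2 and 15.7 CPM in untreated, at 67.4, 65.0 and 65.7 in control and at 92.8, 101 and 118 CPM in RVO samples. It rose 6.93-fold (log2 2.79 ± 0.11 SE, adjusted p = 2.34e-06, edgeR), and its 3 groups were wholly apart. Rplp1, which pairs with Rplp2, varied more within untreated samples, at 122.8, 165 and 231 CPM, and was at 298, 369 and 332 CPM in control and at 470, 454 and 500 CPM in RVO samples. The rise of Rplp1 was 2.81-fold (adjusted p = 0.00031, edgeR).

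RVO eyes had 23 of the 27 small-subunit genes above and 1 below the untreated level, and the median of their log2 fold changes was 1.10. Rps10 (chr17:27630418-27636669), a protein of the head of the small subunit, showed the largest change of all 71. It was at 5.45, 4.61 and 5.29 CPM in untreated, at 29.4, 34.0 and 30.1 in control and at 47.7, 36.0 and 52.4 CPM in RVO samples, and rose 9.07-fold (log2 3.18 ± 0.17 SE, adjusted p = 6.2e-06, edgeR). Of its exon bases, 28.7% overlap other annotated genes, among them a read-through gene on the same strand, so reads of these cannot be told apart from its own. Rps21 (chr2:180257377-180258445) was at 14.4, 14.9 and 19.9 CPM in untreated, at 67.7, 63.9 and 63.9 in control and at 69.1, 85.7 and 91.6 CPM in RVO samples, a rise of 5.10-fold. Rps2, which lies at the mRNA entry of the small subunit, rose 5.04-fold from 22.4, 18.5 and 18.2 CPM in untreated to 107, 80.9 and 103.1 CPM in RVO samples. Its control samples, at 45.9, 56.5 and 49.5 CPM, stood between both. Rps27a, which is made as a fusion with ubiquitin, was at 3.91, 2.58 and 3.00 CPM in untreated, at 4.43, 4.45 and 3.56 in control and at 6.56, 5.39 and 6.55 CPM in RVO samples, and rose 2.01-fold from untreated to RVO eyes (adjusted p = 0.0027, edgeR). Rpsa, the protein also called the laminin receptor, had the lowest level per length of all 71 and rose 3.48-fold from 1.27, 1.09 and 2.36 CPM to 5.99, 3.78 and 6.55 CPM (adjusted p = 0.0018, edgeR).

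Of the 44 genes of the large subunit and stalk, 31 were higher and 1 lower, and the median of their log2 fold changes was 1.06. Rpl12, which lies at the base of the stalk, was at 3.54, 2.34 and 3.36 CPM in untreated, at 8.73, 7.58 and 6.74 in control and at 26.1, 11.4 and 23.1 CPM in RVO samples. The rise from untreated to RVO eyes was 6.74-fold (log2 2.75 ± 0.34 SE, adjusted p = 0.00022, edgeR), and RVO replicate 2 was well below the other two. Rpl32 rose 5.06-fold, from 21.2, 15.9 and 17.9 CPM in untreated to 93.1, 77.5 and 101 CPM in RVO samples (adjusted p = 9.99e-06, edgeR). Rpl8, a protein near the peptidyl transferase centre and among those of highest level, was at 214, 210 and 238 CPM in untreated, at 352, 369 and 372 in control and at 493, 419 and 511 CPM in RVO samples. It rose 2.20-fold, close to the median of the family.

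A few genes stood against this direction. Rpl23a was at 3.72, 2.58 and 2.14 CPM in untreated and at 0.44 to 0.61 CPM in RVO samples, a fold change of 0.204 (log2 -2.30 ± 0.30 SE, adjusted p = 0.00028, edgeR). This rests on 10 to 41 counts per sample, 62.3% of its exon bases overlap other genes (Tlcd1 and Snord42b), and it lies just inside the count minimum with a lowest count of 10. Rps24, a small-subunit protein, was at 151, 131 and 121 CPM in untreated and at 91.0, 71.6 and 87.4 CPM in RVO samples, a fold change of 0.635 (log2 -0.66 ± 0.12 SE, adjusted p = 0.0015, edgeR). None of its exon bases overlap another gene. Rps26 (0.656 times the untreated level, adjusted p = 0.0132), Rpl41 (0.840 times, adjusted p = 0.0936) and Rpl7 (0.876 times, adjusted p = 0.0672) were below untreated in every RVO sample but missed the threshold of the edgeR test.

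**Figure D2:**
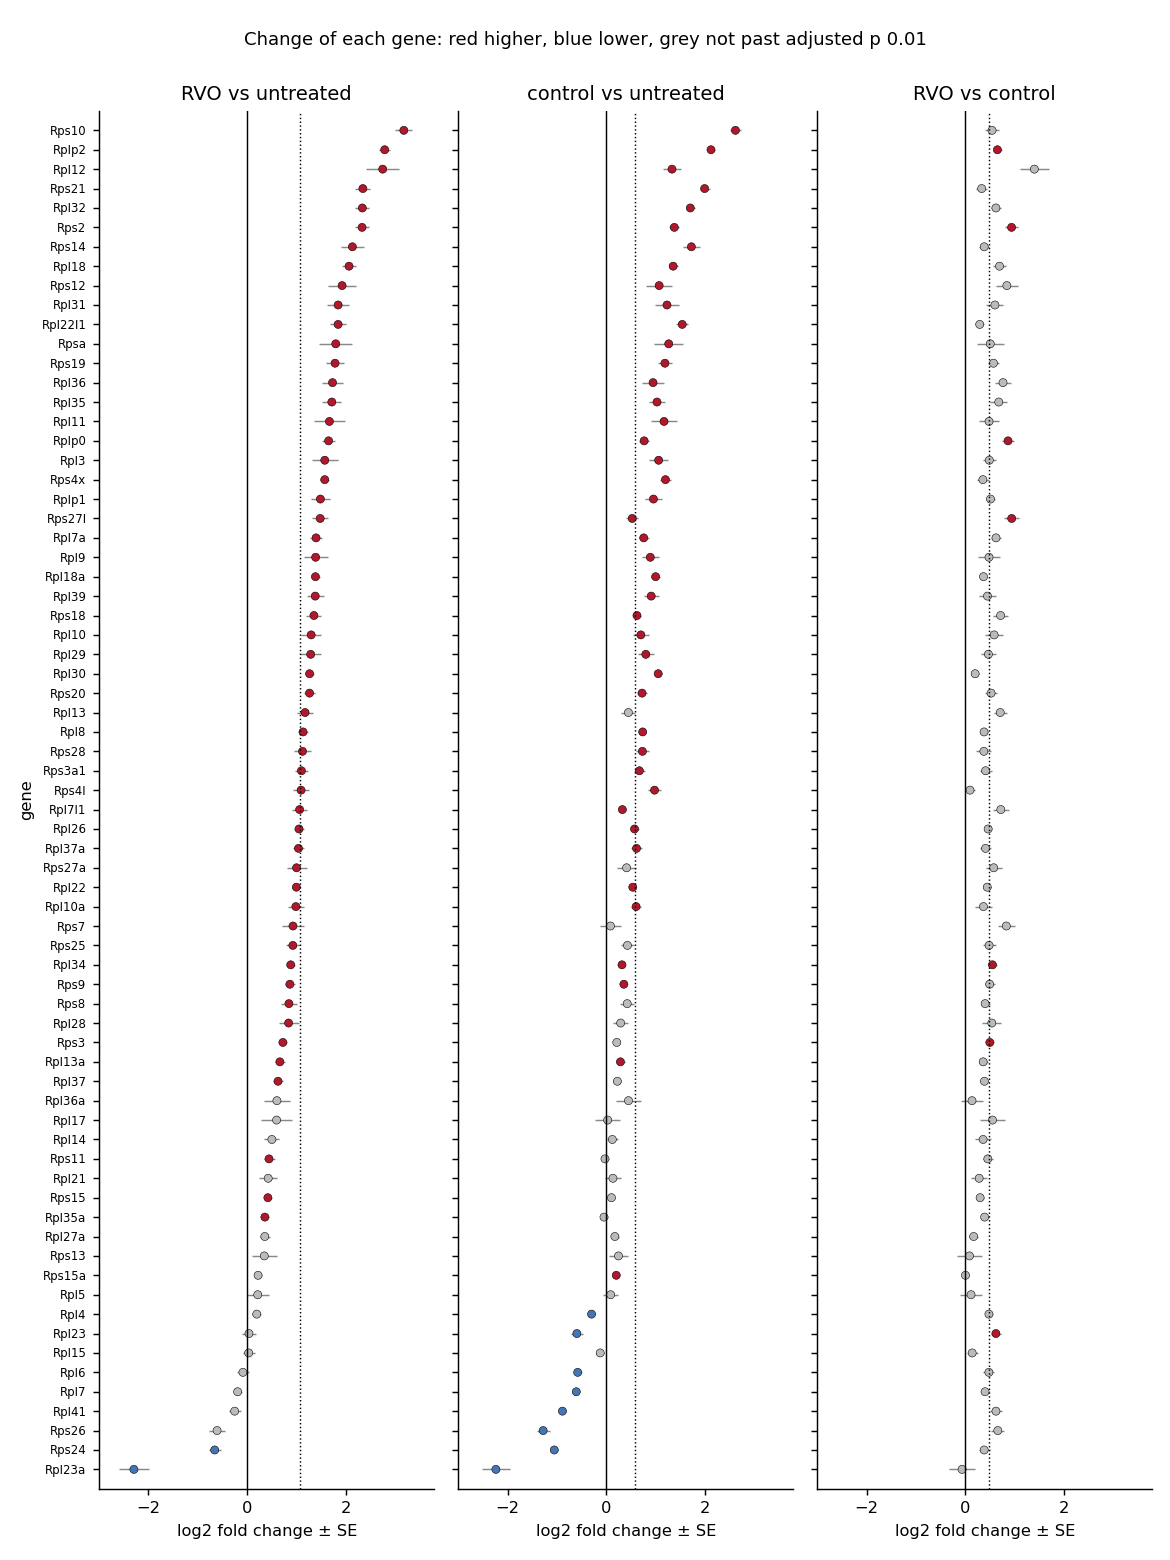
Log2 fold change ± SE (x axis) of 70 of the 71 genes (y axis, ordered by RVO against untreated eyes) in the 3 comparisons. Dotted lines mark the medians over all 71 of 1.07, 0.58 and 0.48, and colours the result of edgeR's test at adjusted p under 0.01. Most genes lie right of 0 in the first 2 panels with a wide spread, and in a narrow band around the median in the third.

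Control laser-treated eyes were compared with untreated eyes to describe the laser without venous occlusion in the same eye. The injection, the occlusion in the fellow eye and the mouse differed as well. Here 44 of the 71 genes were higher and 8 lower in control eyes, beside 27.2% and 25.2% of the 16066 genes tested (edgeR, adjusted p under 0.01). The median log2 fold change was 0.58 (1.49-fold) for the ribosomal protein genes and 0.013 for all genes. With the trends with gene length and GC content removed, it was 0.37 for the ribosomal protein genes. Every control sample was above every untreated sample in 49 of the 71 and in 34.5% of all genes. RVO and control eyes were compared with the same untreated samples, so both sets of fold changes share them. Rps10 rose 6.17-fold (log2 2.62 ± 0.11 SE, adjusted p = 9.14e-09), Rplp2 4.37-fold (log2 2.13 ± 0.07 SE, adjusted p = 3.24e-09), Rps21 4.00-fold and Rpl32 3.27-fold from untreated to control eyes (edgeR). Rps14, a protein of the platform of the small subunit, was at 26.4, 32.0 and 52.0 CPM in untreated, at 115, 122.6 and 127 in control and at 170, 136 and 170 CPM in RVO samples. It rose 3.32-fold in control eyes (adjusted p = 2.06e-06, edgeR). Untreated replicate 3 stood above the other two for Rps14, as it did for Rplp1.

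The 8 genes that fell in control eyes were Rpl23a, Rps26, Rps24, Rpl41, Rpl7, Rpl23, Rpl6 and Rpl4, the last 3 of which were named after their values were seen. Rps26, which lies at the mRNA exit of the small subunit, was at 79.8, 57.0 and 53.1 CPM in untreated, at 23.4, 28.7 and 25.02 in control and at 44.1, 34.0 and 43.5 CPM in RVO samples. Its fold change in control eyes was 0.413 (log2 -1.28 ± 0.13 SE, adjusted p = 4.03e-06, edgeR). Rps24 was at 57.8, 68.2 and 65.7 CPM in control samples, 0.483 times the untreated level (adjusted p = 4.93e-07, edgeR). Rpl41, a very short and basic protein, was at 81.6, 75.6 and 71.6 CPM in untreated, at 37.4, 44.5 and 40.3 in control and at 64.2, 52.5 and 71.3 CPM in RVO samples. Rpl7 was at 177, 160 and 165 CPM in untreated, at 105, 114 and 106 in control and at 150, 131 and 150 CPM in RVO samples. In Rps24, Rps26, Rpl41 and Rpl7, every control sample was below every RVO sample, and every RVO sample below every untreated sample. Rpl4, the gene with most counts of the family, was at 638, 559 and 557 CPM in untreated, at 454, 492 and 464 in control and at 692, 584 and 689 CPM in RVO samples, so its RVO and untreated groups overlapped.

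**Figure D3:**
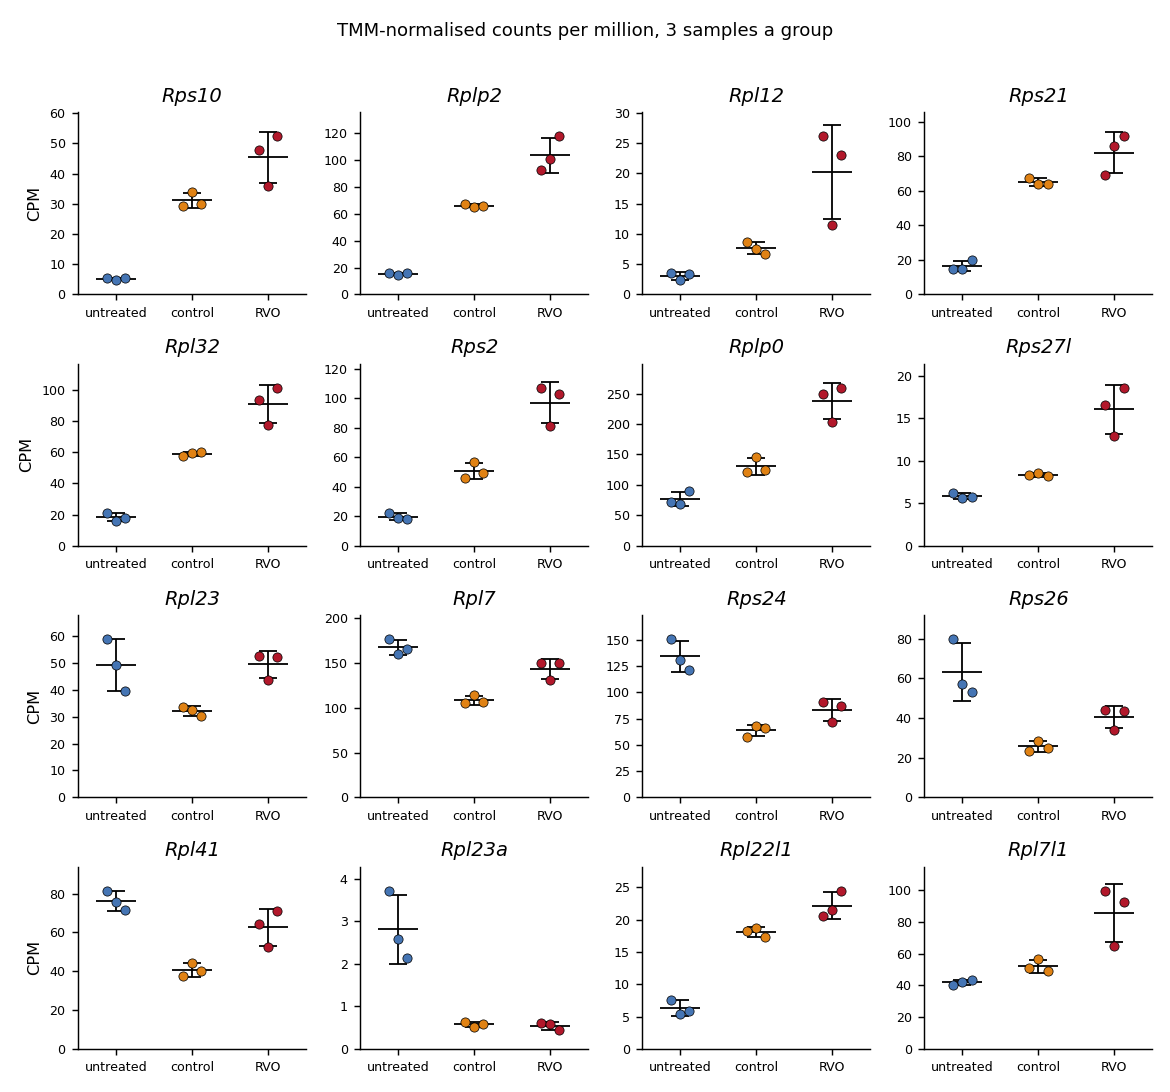
TMM-normalised CPM (y axis from 0) of 16 ribosomal protein genes in the 3 samples of each group, with the mean ± SD. The upper 2 rows climb from untreated through control to RVO eyes, whereas Rpl23, Rpl7, Rps24, Rps26 and Rpl41 are lowest in control eyes.

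RVO eyes were compared with control laser-treated eyes to describe what venous occlusion adds to laser. At the threshold of 0.01, 7 of the 71 genes were higher and 0 lower in RVO eyes, beside 2.70% and 0.634% of 16874 genes tested (edgeR). At an adjusted p under 0.05, 52 of the 71 were higher and 0 lower. Of all 16874 genes, 17.5% were higher and 2880 genes lower at that threshold. DESeq2 placed 37 higher and 0 lower at 0.01, beside 11.0% and 12.7% of 17050 genes. The log2 fold change was above 0 for 70 of the 71, with a median of 0.48 (1.40-fold) against 0.019 over all genes, and the exception was Rpl23a (log2 -0.06 ± 0.26 SE). Its value missed the unadjusted threshold of 0.05 too, so 0 genes were lower by that measure, beside 22.9% of all genes. In 55 of the 71, every RVO sample was above every control sample, beside 26.7% of all genes. The interquartile range of log2 fold changes ran from 0.38 to 0.61, a width of 0.24, while the width over all genes was 0.57. Widths against untreated eyes were 1.02 for RVO and 0.83 for control eyes.

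The 7 genes were Rps27l, Rps2, Rplp0, Rplp2 and Rpl23, which the rule for named genes gave, and Rps3 and Rpl34, named after their values were seen. Rps27l, a paralog of Rps27 known as a p53 target, was at 8.28, 8.59 and 8.20 CPM in control and at 16.6, 12.9 and 18.6 CPM in RVO samples, a rise of 1.92-fold (log2 0.94 ± 0.15 SE, adjusted p = 0.00996, edgeR). Rps2 rose 1.92-fold (log2 0.94 ± 0.13 SE, adjusted p = 0.0086) and Rplp0 1.83-fold (log2 0.87 ± 0.12 SE, adjusted p = 0.00827, edgeR). Rpl23 was at 33.7, 32.5 and 30.2 CPM in control and at 52.5, 43.7 and 52.2 CPM in RVO samples, while its untreated samples, at 58.8, 49.4 and 39.6 CPM, overlapped those of RVO eyes. Rps3, a protein of the small subunit with a second role in DNA repair, was at 389, 432 and 413 CPM in control and at 597, 533 and 612 CPM in RVO samples. Rpl12 had the largest difference of all 71 (2.65-fold), but its RVO samples varied widely and its adjusted p was 0.0149.

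This count depended on single samples. Without RVO replicate 2 it was 52 of 71, and without any other of the 6 samples it was 0, while 48 to 62 of the 71 had an unadjusted p under 0.05 in these fits (edgeR). The count over all genes moved with it: 2942 of 17199 genes (17.1%) were higher without RVO replicate 2, and 0 to 29 were without any of the others. At an unadjusted p under 0.05 in either direction there were between 6100 of 17224 genes (without RVO replicate 3) and 9839 of 17199 (without RVO replicate 2). Which control pool held the fellow eyes of which RVO pool is not given in the sources used here. The median log2 fold change moved only between 0.41 and 0.54. RVO replicate 2 had the lowest share of ribosomal protein counts among RVO samples (0.544%), the lowest leukocyte markers (145 CPM against 201 and 213) and the highest lens markers (5903 CPM against 186 and 494), and the part of these in the result was not tested.

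The order of the groups was the same for most genes. Every RVO sample was above every control sample and every control sample above every untreated sample in 41 of the 71 (57.7%), and in 14.4% of the 15852 genes tested in all 3 comparisons. The means stood in this order for 60 of the 71 (84.5%) and for 30.7% of all genes. The 2 subunits were also compared within each sample, which needs no scaling between libraries. The small subunit held 42.9%, 42.0% and 42.2% of ribosomal protein counts in untreated, 42.3%, 42.5% and 42.6% in control and 41.8%, 41.6% and 41.9% in RVO samples. RVO eyes thus had 0.624 percentage points less than untreated and 0.691 less than control eyes (both exact p = 0.1), and control and untreated eyes overlapped (difference 0.0671 points, exact p = 0.9). The sign of these small differences turned with the weighting: the mean log2 CPM of small-subunit minus large-subunit genes was higher, not lower, in RVO than in untreated eyes (difference 0.13) and differed by 0.0093 between RVO and control eyes. The size depended on a few genes: without the 3 genes of most counts, the small-subunit share differed by -3.40 points between RVO and untreated, -1.47 between RVO and control and -1.93 between control and untreated eyes (each exact p = 0.1).

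Levels between genes were compared as mean CPM per kb of mRNA over the 9 samples. Rplp1 (655 CPM per kb), Rps15 (425) and Rpl8 (415) were highest, and Rpl5 (2.98), Rpl23a (2.34) and Rpsa (2.26) were lowest. Rps15, a small-subunit protein of the head, was at 202, 176 and 189 CPM in untreated, at 192, 206 and 206 in control and at 256, 225 and 262 CPM in RVO samples, a rise of 1.34-fold from untreated to RVO eyes (adjusted p = 0.0029, edgeR). With the trends with gene length and GC content removed, its difference turned to log2 -0.66. Rpl5, which binds 5S rRNA, was at 6.54, 5.70 and 5.00 CPM in untreated and at 7.23, 4.63 and 7.65 CPM in RVO samples, which overlapped.

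These levels were also set beside the sequence that genes share. A median of 60% of the 50-base windows of a ribosomal protein mRNA, the length of a read, occurred exactly in annotated transcripts of another gene, with a range of 0% to 95.1%, and 69 of the 71 shared windows with at least 1 annotated pseudogene. Rps3 shared 2.96%, Rpl8 7.86% and Rpl4 16.5%, and these were among the genes with most counts, while Rpl5 shared 93.8%. Other genes at the ends of the range did not follow this order, as Rplp1, the highest per kb, shared 60%, Rps15 39.0% and Rpsa, the lowest, 53.7%. The median level was 58.2 CPM per kb in genes that shared less than 25%, 99.4 from 25% to 50%, 29.8 from 50% to 75% and 9.75 at 75% or more. Across the 71 genes, which are not independent replicates and share the 9 libraries, the shared percent and the level per kb had a Spearman's rank correlation of -0.50. Levels between members are therefore not comparable here, since how reads that match several genes were counted is not given in the sources used here. For the log2 fold changes this correlation was 0.12 between RVO and untreated, 0.13 between control and untreated and -0.014 between RVO and control eyes. Of the 11 genes that shared less than 25% of their windows, 9 were higher in RVO and 8 in control than in untreated eyes, with median log2 fold changes of 1.07 and 0.53. Of the 20 genes that shared 75% or more, 14 and 13 were higher, with medians of 1.28 and 0.72.

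**Figure D4:**
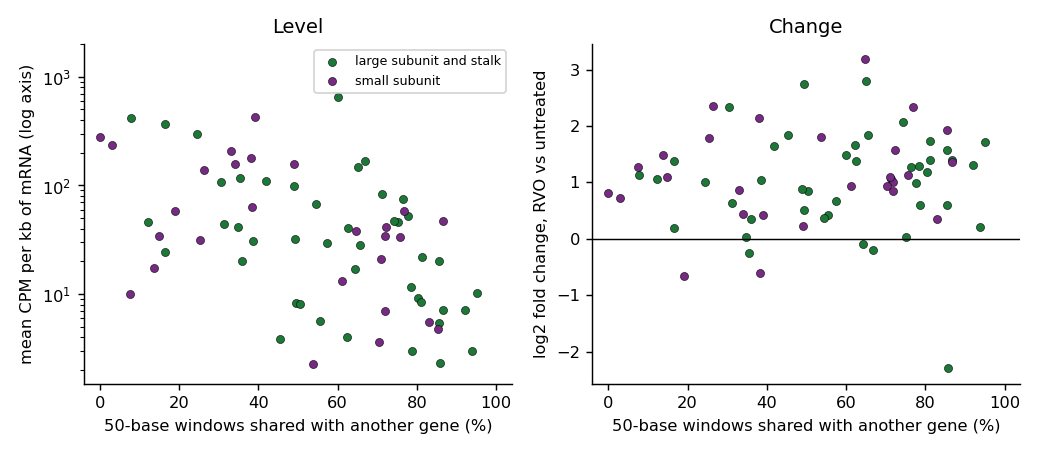
Percent of 50-base windows of each ribosomal protein mRNA that occur in another gene (x axis) against the mean CPM per kb (left, log axis) and the log2 fold change between RVO and untreated eyes (right). Each point is 1 of 71 genes. Levels are lower on the whole at high shared percent (Spearman's rank correlation -0.50, with wide scatter), and changes show little relation to it (0.12).

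Several ribosomal proteins have a paralog that can take their place, and the ratio of both counts within a sample needs no scaling. These ratios may depend on how reads that match several genes were counted, so they do not give relative amounts of mRNA. Of their 50-base windows, Rpl22 shared 24.5% and Rpl22l1 65.6%, and Rpl7 66.8% and Rpl7l1 12.2%. Rps4x shared 72.2% and Rps4l 14.9%, and Rpl36a 85.5% and Rpl36al 63.3%. Rpl22l1, which is known to be repressed by Rpl22, had 0.0792, 0.0571 and 0.0619 counts per count of Rpl22 in untreated samples. The ratio was 0.137, 0.132 and 0.127 in control and 0.105, 0.129 and 0.124 in RVO samples. It was 1.99 times higher in control and 1.80 times higher in RVO than in untreated eyes (both exact p = 0.1), and control and RVO samples overlapped. Both genes rose from untreated to RVO eyes, Rpl22l1 3.6-fold (adjusted p = 3.96e-05) and Rpl22 2.0-fold (adjusted p = 3.94e-05, edgeR). Rpl7l1, a paralog of Rpl7 linked to ribosome assembly, had 0.227, 0.264 and 0.262 counts per count of Rpl7 in untreated, 0.484, 0.495 and 0.459 in control and 0.666, 0.498 and 0.616 in RVO samples, and all 3 groups were apart. Rpl7l1 rose 2.09-fold and 1.26-fold from untreated to RVO and control eyes (adjusted p = 0.00048 and 0.0017, edgeR), whereas Rpl7 had its lower values in control eyes. Rps4l, annotated as a transcribed processed pseudogene, had 0.909, 0.869 and 1.17 counts per count of its X-linked parent Rps4x in untreated, 0.922, 0.772 and 0.883 in control and 0.731, 0.683 and 0.714 in RVO samples, so RVO samples were lowest. Rpl36al, whose symbol lies outside the pattern, was listed with 1.75 ± 0.828 counts per count of Rpl36a in untreated, 2.05 ± 0.820 in control and 2.94 ± 0.159 in RVO samples (SD, n = 3), and the control samples overlapped both other groups.

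The 17 rows under the minimum were not all silent genes. Just inside it lay Rpl23a with a lowest count of 10 and Rpl11 and Rps12 with 11 each, and just outside lay Rps6 with 7 and Rpl19 and Rpl24 with 6 each. They held 13 protein-coding genes, and Rps6, the substrate of S6 kinase and a much studied ribosomal protein, had only 7, 11 and 17 counts in untreated, 26, 21 and 34 in control and 46, 32 and 44 in RVO samples. Of its windows, 84.6% occurred in other genes. Rps27, with 98.6% shared, had 4, 9 and 11 counts in untreated and 83, 54 and 65 in RVO samples. Rpl10l, the retrogene of Rpl10 that is known from the testis, had 0 counts in every sample, which allows up to 0.103 to 0.242 CPM (3 counts of each unscaled total). Rpl3l, known from striated muscle, had 1 to 5 and Rpl39l 0 to 4 counts per sample. Their partners Rpl10, Rpl3 and Rpl39 rose 2.46-fold, 2.98-fold and 2.61-fold from untreated to RVO eyes.

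Other genes of the pathway were described by lists, chosen with earlier results of these data known, and their counts stand beside the shares of all genes given above (27.4% higher and 24.6% lower in RVO and 27.2% and 25.2% in control than in untreated eyes, 2.70% and 0.634% in RVO than in control eyes). Of 24 translation factors and other TOP mRNAs, RVO eyes had 13 above and 2 below untreated eyes (median log2 0.53), 10 and 2 in control than in untreated eyes (0.20), and 1 and 0 in RVO than in control eyes (0.46). By DESeq2 the last counts were 13 and 0, beside 11.0% and 12.7% of all genes. At an unadjusted p under 0.05 they were 17 and 0, beside 24.1% and 22.9% of all genes. Fau, which encodes a ribosomal protein fused to a ubiquitin-like protein under a name outside the symbol pattern, rose 3.98-fold from untreated to RVO eyes. The subunits of initiation factor 3 Eif3e (log2 -0.49 ± 0.09 SE, adjusted p = 0.0017) and Eif3h (-0.24 ± 0.06 SE, adjusted p = 0.0083) fell from untreated to RVO eyes (edgeR), but with the trends with length and GC content removed Eif3e turned to log2 0.48. Pabpc1, the poly(A)-binding protein, was at 173, 162 and 148 CPM in control and at 364, 236 and 323 CPM in RVO samples (adjusted p = 0.0104).

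Of 39 genes of ribosome biogenesis, RVO eyes had 22 above and 0 below untreated eyes (median log2 0.65). At an unadjusted p under 0.05 in either direction there were 28 of the 39, beside 11499 of all 16380 genes. Control eyes had 15 above and 11 below untreated eyes (median 0.13). Between RVO and control eyes 0 of the 39 passed 0.01 in edgeR's test, although 29 were higher at an adjusted p under 0.05 and 36 at an unadjusted p under 0.05. Of all genes, 17.5% and 24.1% were higher by these measures. DESeq2 placed 21 of the 39 higher at 0.01, beside 11.0% of all genes. All 39 had a log2 fold change above 0 (median 0.55), as had 8785 of all 16874 genes. The nucleolar methyltransferase Fbl (log2 2.12 ± 0.31 SE) and Eif6 (1.86 ± 0.17 SE), which keeps subunits apart, rose most from untreated to RVO eyes, whereas Taf1d (-0.78 ± 0.12 SE) and Rpf2 (-0.62 ± 0.12 SE) fell in control eyes. Of 77 mitochondrial ribosomal protein genes, RVO eyes had 36 above and 4 below untreated eyes (median log2 0.40), with Mrps25 at 22.3, 22.4 and 22.4 CPM in untreated, at 39.9, 57.9 and 49.3 in control and at 116, 90.5 and 110 CPM in RVO samples. Control eyes had 25 higher and 18 lower than untreated eyes (of 76 tested, 32.9% and 23.7%, median 0.15). RVO eyes had 1 higher and 0 lower than control eyes (median 0.19), 7 and 1 by DESeq2, and 33 and 2 at an unadjusted p under 0.05. Of all genes, 11.0% were higher and 12.7% lower by DESeq2, and 24.1% and 22.9% at that unadjusted p. Of 19 genes that control ribosomal protein mRNAs, RVO eyes had 7 above and 4 below untreated eyes (36.8% and 21.1%, median 0.19), and control eyes had 9 above and 6 below (47.4% and 31.6%, median 0.17). The shares of the mitochondrial list in control eyes lay near those of all genes (27.2% and 25.2%). In RVO eyes that list had 46.8% higher and 5.19% lower than in untreated eyes, beside 27.4% and 24.6% of all genes. The shares of the list of 19 genes in RVO eyes (36.8% and 21.1%) lay nearer to those of all genes. The transcription factor Myc was at 1.45, 0.55 and 1.71 CPM in untreated, at 7.87, 7.98 and 5.90 in control and at 60.9, 20.4 and 45.5 CPM in RVO samples, and was 1 of the 2 genes of this list that passed 0.01 in edgeR's test between control and RVO eyes, both higher. By DESeq2, and at an unadjusted p under 0.05, 5 of the 19 were higher and 1 lower in this comparison. The other gene that passed 0.01 in edgeR's test was Eif4ebp1, which encodes an mTOR target. It was at 1.09, 1.56 and 1.14 CPM in untreated, at 9.32, 9.55 and 5.48 in control and at 39.6, 22.2 and 29.4 CPM in RVO samples. Rps6kb1, which encodes S6 kinase, fell in both laser groups against untreated eyes (log2 -0.59 ± 0.10 SE in RVO and -0.71 ± 0.07 SE in control eyes, adjusted p = 0.0012 and 2.89e-06, edgeR), but turned to log2 0.11 between RVO and untreated eyes with the trends with length and GC content removed.

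**Figure D5:**
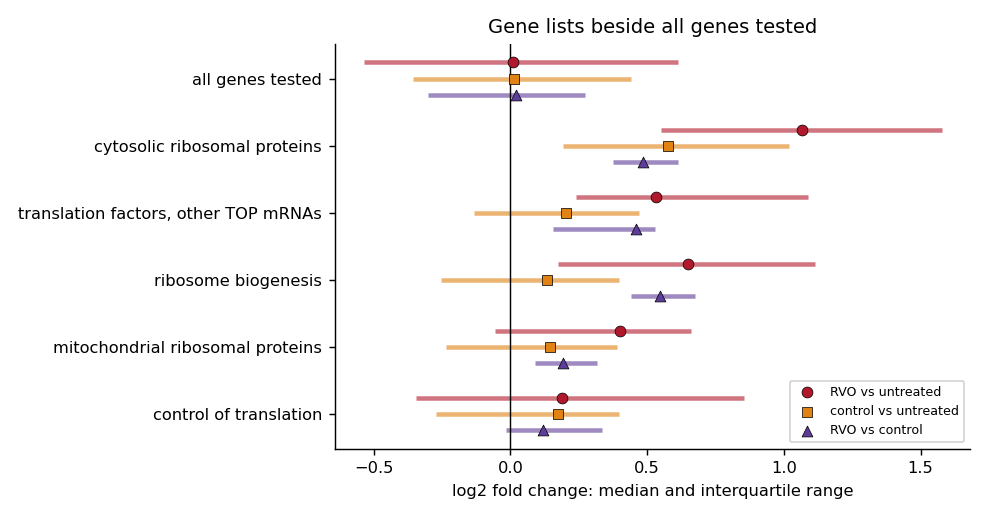
Median log2 fold change (symbols) and interquartile range (bars) for all genes tested and 5 lists in the 3 comparisons. The ribosomal protein genes have the highest median in both comparisons with untreated eyes (1.07 and 0.58), and ribosome biogenesis genes have it between RVO and control eyes (0.55).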

How the data were processed

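RNA of 9 pools of 6 retinas was sequenced by the authors with a stranded poly(A) kit as single reads of 50 bases. The authors mapped the reads with STAR 2.5.2b, using Gencode vM11 for the mouse genome, and counted them per gene with featureCounts (Subread 1.5.1). The deposited counts are not normalized. Whether strand was used and how reads matching several genes were counted is not given in the sources used here, so levels of near-identical or overlapping genes are uncertain.

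Samples were grouped by their labels. The counts were analysed with edgeR 4.0.16 in R 4.3.3: filterByExpr, TMM factors and the quasi-likelihood test in a separate fit for each of 3 pairs of groups, with Benjamini-Hochberg adjustment over all genes tested and a threshold of 0.01. CPM used TMM factors of all 9 samples. DESeq2 1.42.0 was an alternative. Other normalizations, filters, thresholds and samples left out were also tried. The replicates of a group were separate pools, and p-values measure the spread between pools. RVO and control pools held fellow eyes of the same mice. The main edgeR fits and the permutation tests treated them as unpaired. Untreated samples had the lowest totals, which limits precision for genes of few counts, and floors of 3 counts cover counting error only.

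Gene coordinates, overlaps and shared windows of 50 bases came from GENCODE vM21 (GRCm38), with the mRNA of the longest coding sequence per gene, and promoter sequences from RefSeq (GRCm38.p6). Exact permutation tests used scipy 1.17.1. The scripts were tested on simulated data. The number of columns not used was 0. Members and lists were chosen with earlier results of these data known. Genes named were the 3 members of highest and lowest level per length, the 5 largest rises and falls per comparison among called members whose groups did not overlap (then uncalled ones, as values), up to 5 called against the median, the stalk genes, Rpsa, Rps6, Rps27a, paralog pairs, and 2 genes at each end of every list. Not all genes of this last group are named. Some genes are not reported here by name, and the sum of retina markers was taken over the remaining genes of that list.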

Additional observations from a re-analysis of the deposited data

How the results depend on the processing

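The share of counts and the median log2 fold changes of ribosomal protein genes kept their direction under all alternatives run. With the trends with length and GC content removed, RVO eyes had 44 ribosomal protein genes above untreated eyes, in place of 54. They had 4 below, in place of 2. Control eyes had 32 above untreated eyes, in place of 44, and 11 below, in place of 8. The share of all genes above untreated eyes was 21.1% in RVO and 16.5% in control eyes, in place of 27.4% and 27.2%. In either direction, 7201 of 16380 and 6326 of 16066 genes passed 0.01. The medians of ribosomal protein genes against untreated eyes were 0.71 in RVO and 0.37 in control eyes. With library sizes alone these medians were 1.28 and 0.75. With each sample left out in turn, the control median ran from 0.51 to 0.64. Between RVO and control eyes, the number of higher genes was 52 at an adjusted p under 0.05, 3 with 10 or more counts in all 9 samples, with RLE or with upper quartile factors, 13 with library sizes alone, 33 without the filter, 34 in 1 fit of all 9 samples, 37 with DESeq2 and 0 to 52 with a sample left out. The share of all genes that were higher moved too, from 2.70% to 17.5%, 2.05%, 1.92% and 1.84% (10 or more counts, RLE, upper quartile), 4.09%, 5.28%, 10.7% and 11.0% in the same order, and ran from 0% to 17.1% with a sample left out. With the replicate number as a block, the number of higher genes between RVO and control eyes was 0, and 0 of all genes were called. In that fit 57 of 71, beside 7227 of all 16874 genes, had an unadjusted p under 0.05. Deviations of same-numbered RVO and control samples from their group means had r = -0.12, -0.14 and 0.066. With 3 pools in each group, these values cannot decide whether same-numbered pools came from the same mice. With the block, the count of higher genes was 54 between RVO and untreated eyes, as without it, and 45 in place of 44 between control and untreated eyes. Of all genes, 26.2% and 27.2% were higher in these 2 fits. The small-subunit difference turned to 0.13 (RVO and untreated) and 0.0093 (RVO and control) as mean log2 CPM, and for control and untreated eyes to -1.93 without the 3 genes of most counts and to between -0.10 and 0.32 with a sample left out (-0.030 without control replicate 3, and -0.10 and -0.014 without untreated replicates 2 and 3). The causes were not tested.

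Log2 fold changes of named genes that turned sign, with length and GC trends removed, were -0.66 (Rps15), 0.48 (Eif3e), 0.12 (Rpf2), 0.49 (Taf1d) and 0.11 (Rps6kb1) between RVO and untreated, -0.87 (Rps15) and -0.19 (Rps6) between control and untreated, and -0.0088 (Rps4l), 0.036 (Eif4a2), -0.030 (Rrp1) and 0.090 (Rictor) between RVO and control eyes. With library sizes alone, Rpl7 was at 0.024, Rpf2 at 0.068 and Taf1d at 0.068 between RVO and untreated eyes. Between RVO and control eyes, Rrp1 turned to -0.0018 with DESeq2, -0.0049 with RLE factors, -0.0023 without a filter and -0.0060 with upper quartile factors. With each sample left out in turn, signs also turned for genes near 0: between RVO and untreated eyes Rpl23 ran from -0.11 to 0.18, Rpf2 from -0.26 to 0.0038 and Taf1d from -0.25 to 0.028, between control and untreated eyes Rpl5 from -0.015 to 0.20, and between RVO and control eyes Rpl5 from -0.022 to 0.29, Rpl23a from -0.16 to 0.050, Rpl36a from -0.0046 to 0.27, Hnrnpa1 from -0.20 to 0.040 and Rrp1 from -0.019 to 0.038. Of these values in sign-turned fits, only Rps15 passed the test. Genes of few counts (Rpl23a, Rpl5, Rpsa, Rps6) were limited by depth in untreated samples.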

Other observations

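Rows named as ribosomal protein pseudogenes numbered 275 and held between 449 and 1483 counts per sample. For 100 counts of the ribosomal protein genes, they held 0.784, 0.803 and 0.812 counts in RVO, 0.930, 0.869 and 0.864 in control and 1.17, 1.11 and 0.957 in untreated samples, a ratio that falls where the genes rise more. As a share of all counts they stood in the same order of groups as the genes, at 0.00511%, 0.00437% and 0.00549% in RVO, 0.00383%, 0.00397% and 0.00369% in control and 0.00363%, 0.00326% and 0.00307% in untreated samples. Adding all of them to the genes left the share of counts at 0.629% ± 0.0708 in RVO, 0.436% ± 0.0233 in control and 0.312% ± 0.0136 in untreated eyes (SD, n = 3).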
